A study of Mus musculus with 64 samples.

Results

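The effect of continuous corticosterone (CORT) on gene expression was compared between liver and hippocampus of the same cohort of mice. The comparison used 38 of the 64 libraries of the series, 20 from liver and 18 from hippocampus, and 11017 of 55573 gene IDs, those that passed a count filter in both tissues. For every gene the CORT-minus-vehicle difference was estimated in liver, in hippocampus, and as liver effect minus hippocampal effect, with genotype as a covariate. Genes were then sorted into shared, opposite and tissue-specific responses.

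The mice were adult males of 10 to 18 weeks, hybrids of C57BL/6J fathers and 129sv mothers. They were wild type (WT) or carried a maternally inherited Ube3atm1Alb deletion (Ube3a m-/p+), a germline model of Angelman syndrome (AS) in which every cell carries the deleted allele. For 5 days they had either a subcutaneous pellet with 20 mg CORT in cholesterol or a vehicle pellet of cholesterol alone. Each combination of genotype and treatment had 5 liver libraries. The hippocampus had 5 libraries from WT CORT mice, 5 from AS CORT mice, 4 from WT vehicle mice and 4 from AS vehicle mice, because the study set aside 1 vehicle library of each genotype as a technical outlier.

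Corticosterone is the main glucocorticoid of mice. It enters cells and binds the glucocorticoid receptor, encoded by Nr3c1, which moves to the nucleus and raises or lowers transcription of target genes, in part by binding palindromic response elements in DNA. Liver and hippocampus both express the receptor: the liver responds with changes in glucose, lipid and amino acid metabolism, and the hippocampus takes part in the negative feedback that limits release of the hormone. Which genes respond is known to differ widely between cell types.

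Gene counts per library ran from 18612550 to 20868924 in liver, where a gene with 3 counts is at 0.144 to 0.161 CPM (its counts divided by the library total and scaled up), and from 19112929 to 21783009 in hippocampus. Reads that did not align made up 1.49 to 4.77% in CORT livers (median 3.21%) and 4.52 to 8.93% in vehicle livers (median 6.06%), and the part of this difference in the liver results was not tested. Ube3a, the gene deleted in AS mice, was at 28.5 to 38.6 CPM in AS livers and 41.8 to 54.4 CPM in WT livers, so the liver labels matched. In hippocampus the ranges overlapped, 69.1 to 97.3 CPM in AS and 72.8 to 97.8 CPM in WT, so the count over the whole gene did not separate the genotypes there; counts per exon were not analysed here. All 12 hepatocyte markers passed the filter in liver, and the summed neuronal markers were at 14232 to 16050 CPM in every hippocampal library. A pair of hippocampal libraries, both from vehicle mice, held traces of hepatocyte transcripts (0.105% and 0.0351% of the liver level), and 3 held choroid plexus markers above 100 CPM in sum, which ran from 37.7 to 260 CPM in vehicle and from 37.2 to 142 CPM in CORT libraries. In a tissue homogenate, fewer cells of a type and less RNA per cell cannot be told apart.

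CORT altered far more genes in liver than in hippocampus. In liver 4566 genes passed (41.4% of those tested), of which 2241 rose (20.3%) and 2325 fell (21.1%). In hippocampus 577 passed (5.24%), of which 223 rose (2.02%) and 354 fell (3.21%). The effect itself differed between the tissues for 2794 genes (25.4%): it was higher in liver for 1391 (12.6%) and lower in liver for 1403 (12.7%). The tests were edgeR quasi-likelihood F-tests with Benjamini-Hochberg adjustment over all 11017 genes and a threshold of 0.05. At an unadjusted p under 0.05 the counts were 5308 genes in liver, 1602 in hippocampus and 3975 for the difference. The typical size of the effect differed too. The median absolute log2 fold change over all tested genes was 0.145 in liver and 0.058 in hippocampus, with near-equal median standard errors (SE) of 0.073 and 0.074. These SEs and counts rest on a spread estimated over both tissues together, so the near-equal SEs do not show equal precision in the tissues. With each tissue fitted alone, 3772 genes passed in liver and 1090 in hippocampus.

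In total 335 genes passed in both tissues, which is 7.34% of the liver genes and 58.1% of the hippocampal genes. Of these, 238 were shared, altered in the same direction, with 69 raised and 169 lowered. The other 97 were opposite: 58 rose in liver and fell in hippocampus, and 39 fell in liver and rose in hippocampus. A further 2363 genes were liver-specific, meaning that they passed in liver, did not pass in hippocampus and passed the test of the difference (1169 raised and 1194 lowered). The same definition gave 147 hippocampus-specific genes, 64 raised and 83 lowered. Passing in 1 tissue alone was often not enough to tell the tissues apart: 1868 liver genes and 95 hippocampal genes passed in 1 tissue without a called difference. For 131 genes the difference alone passed, and 6078 passed no test. Across all 11017 genes the liver and hippocampal log2 fold changes correlated weakly (Pearson r = 0.185, Spearman rho = 0.137); this is a description across genes of the same mice, and genes are not independent replicates. At the edge of the threshold, Itpr1 (adjusted p = 0.0493 in hippocampus) and Mmp15 (0.0497 in liver) were just inside the shared class, and Tmem125 (0.0503 in liver) and Col3a1 (0.0514 in hippocampus) just outside it. Without the 3 libraries with choroid plexus transcripts, 313 hippocampal genes passed, with 136 shared, 57 opposite and 87 hippocampus-specific genes; without the pair with hepatocyte transcripts the counts were 536, 221, 84 and 147.

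**Figure D1:**
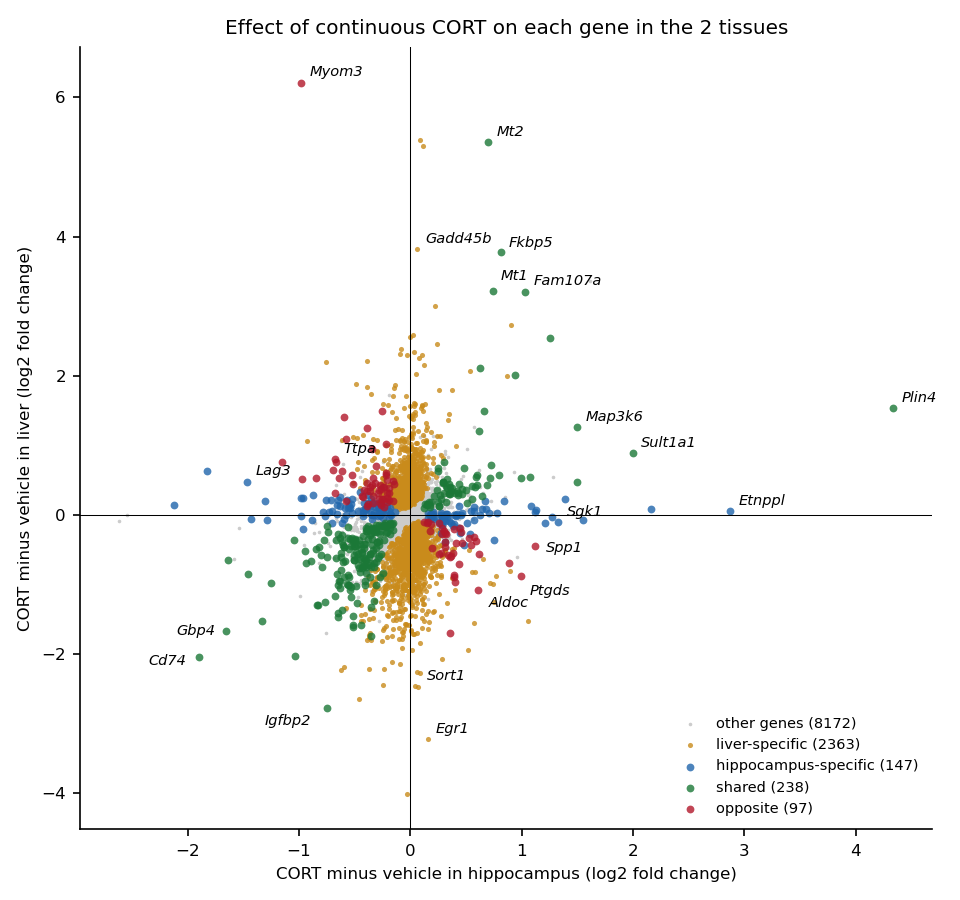
CORT effect in hippocampus (x axis, log2 fold change) and in liver (y axis, log2 fold change) for the 11017 tested genes, coloured by class. The 238 shared genes lie in the lower left and upper right quadrants and the 97 opposite genes in the remaining ones; the 2363 liver-specific genes stretch along the vertical line at 0 and the 147 hippocampus-specific genes along the horizontal one. Grey points are the other genes.

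The shared genes that rose included classical glucocorticoid receptor targets. Short stretches of promoter are shown for those members whose window, 250 bases before to 50 bases after the transcription start, held a palindromic receptor motif: the site GNACA, 3 bases of any kind, and its reverse complement TGTNC, where N is any base. The motif is its own reverse complement, so both strands are searched at once. Among shared genes that rose, 4 of 56 with a promoter entry held it (7.14%), against 31 of all 8596 tested genes with an entry (0.361%) and 156 of all 32851 promoters (0.475%). It was found in 1 of 50 hippocampus-specific genes that rose (2.0%), in 3 of 927 liver-specific genes that rose (0.324%), in 3 of 926 that fell (0.324%), and in none of the 114 shared genes that fell. None of the 40 and 32 opposite genes with an entry and none of the 65 hippocampus-specific genes that fell held it. A match is a description of the letters, not of binding. The sequences are from RefSeq (GRCm38.p6), written 5′ to 3′ on the gene's strand, and capitals mark the motif.
Map3k6 (chr4:133240568-133240867, plus strand): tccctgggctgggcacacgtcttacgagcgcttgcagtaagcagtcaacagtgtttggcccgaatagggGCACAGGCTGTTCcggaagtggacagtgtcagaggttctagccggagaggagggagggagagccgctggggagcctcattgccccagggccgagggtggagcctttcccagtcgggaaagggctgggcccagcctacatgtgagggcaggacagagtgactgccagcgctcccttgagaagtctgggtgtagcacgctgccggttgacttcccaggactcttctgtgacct
Mt1 (chr8:94178839-94179138, plus strand): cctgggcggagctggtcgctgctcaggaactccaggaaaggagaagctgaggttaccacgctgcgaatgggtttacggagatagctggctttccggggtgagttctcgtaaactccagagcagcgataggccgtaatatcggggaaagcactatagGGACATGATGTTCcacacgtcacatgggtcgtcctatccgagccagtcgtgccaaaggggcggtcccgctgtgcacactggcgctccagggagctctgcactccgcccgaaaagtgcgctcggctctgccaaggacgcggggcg
Fam107a (chr14:8309730-8310029, minus strand): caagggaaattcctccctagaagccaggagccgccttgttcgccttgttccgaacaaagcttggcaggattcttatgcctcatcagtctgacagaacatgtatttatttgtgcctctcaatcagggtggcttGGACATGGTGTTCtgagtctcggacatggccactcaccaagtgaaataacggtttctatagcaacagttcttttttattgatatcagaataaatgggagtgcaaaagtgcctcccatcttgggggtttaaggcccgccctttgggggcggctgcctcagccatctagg
Serpina3n (chr12:104406458-104406757, plus strand): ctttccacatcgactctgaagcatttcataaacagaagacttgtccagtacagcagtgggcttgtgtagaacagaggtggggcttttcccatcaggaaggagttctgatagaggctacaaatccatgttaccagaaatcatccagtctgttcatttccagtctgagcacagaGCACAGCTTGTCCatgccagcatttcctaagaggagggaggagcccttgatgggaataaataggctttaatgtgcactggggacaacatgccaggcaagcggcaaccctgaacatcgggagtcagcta
Sgk1 (chr10:21993640-21993939, plus strand): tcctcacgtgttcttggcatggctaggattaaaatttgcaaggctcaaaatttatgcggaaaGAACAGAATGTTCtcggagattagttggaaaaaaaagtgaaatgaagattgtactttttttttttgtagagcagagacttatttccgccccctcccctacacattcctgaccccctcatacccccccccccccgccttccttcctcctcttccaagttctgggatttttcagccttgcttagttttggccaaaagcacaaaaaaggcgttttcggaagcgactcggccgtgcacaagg
Map3k6, Mt1, Fam107a and Serpina3n were shared, while Sgk1 was hippocampus-specific. The motif lay 168 bases before the transcription start in Map3k6, 81 in Mt1, 105 in Fam107a, 65 in Serpina3n and 175 in Sgk1.

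Map3k6, a kinase of the stress-activated MAP kinase cascade (ENSMUSG00000028862, chr4:133240818-133252929), rose in both tissues. In liver it was at 0.196 to 0.854 CPM in vehicle mice (median 0.536) and at 0.821 to 1.83 CPM in CORT mice (median 1.40), and in hippocampus at 0.726 to 2.67 CPM (median 1.66) and 3.32 to 5.63 CPM (median 4.17). The hippocampal groups did not overlap and the liver groups overlapped at their edges. The log2 fold change was 1.26 ± 0.23 (SE) in liver and 1.5 ± 0.18 in hippocampus, and the difference of -0.24 (95% interval -0.84 to 0.36) did not pass (adjusted p = 0.607).

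Fkbp5, an immunophilin that lowers the hormone affinity of the receptor (ENSMUSG00000024222, chr17:28399094-28517527), rose in both tissues but by far more in liver. Its liver level was 9.24 to 39.3 CPM in vehicle mice (median 15.5) and 176 to 333 CPM in CORT mice (median 222). In hippocampus it was at 41.8 to 87.3 CPM (median 60.9) and 96.8 to 112 CPM (median 106). CORT and vehicle mice were fully separated in both tissues, and the hippocampus started from the higher vehicle level. The rise was 13.8-fold in liver and 1.76-fold in hippocampus, with a log2 difference of 2.97 ± 0.25 (adjusted p = 1.75e-11). Tsc22d3, which encodes the anti-inflammatory protein GILZ, followed the same order, with log2 fold changes of 1.49 ± 0.09 and 0.66 ± 0.10 and a difference that passed (adjusted p = 1.74e-05). Zbtb16, a zinc finger transcription factor, rose by 2.10 ± 0.19 and 0.62 ± 0.19 on the log2 scale, and without the choroid plexus libraries its hippocampal value was 0.54 and did not pass (adjusted p = 0.254).

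The metallothioneins, small proteins that bind zinc and copper, rose more in liver, and Mt2 had the widest gap between the tissues of the 238 shared genes. It was at 0.784 to 4.92 CPM (median 1.5) in vehicle livers and 47.6 to 142 CPM (median 55.3) in CORT livers, against 60.5 to 137 CPM (median 88.5) and 119 to 197 CPM (median 151) in hippocampus. The liver groups were far apart while the hippocampal groups overlapped. The log2 fold change was 5.36 ± 0.28 in liver and 0.70 ± 0.21 in hippocampus, a difference of 4.66 ± 0.35 (adjusted p = 5.66e-13). Its neighbour Mt1 rose by 3.22 ± 0.22 and 0.74 ± 0.22. Without the choroid plexus libraries their hippocampal effects were about as large but did not pass (0.65, adjusted p = 0.215, for Mt2 and 0.71, adjusted p = 0.175, for Mt1), and without the hepatocyte libraries that of Mt1 was 0.80 (adjusted p = 0.0607).

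Of the 238 shared genes the difference passed for 56, with the larger effect in liver for 45 and in hippocampus for 11. Plin4, a perilipin that coats lipid droplets (ENSMUSG00000002831, chr17:56100591-56109803), was at 1.33 to 3.11 CPM (median 2.07) in vehicle hippocampus and 20.2 to 87.1 CPM (median 46.2) after CORT, against 0.688 to 4.47 CPM (median 1.74) and 3.82 to 7.99 CPM (median 4.97) in liver. The hippocampal groups were widely separated, and the liver groups overlapped slightly. That is a 20.2-fold rise in hippocampus and a 2.90-fold rise in liver, with a log2 difference of -2.80 ± 0.38 (adjusted p = 7.22e-07). Sult1a1, a sulfotransferase for phenols, rose from 3.93 to 6.03 CPM in vehicle to 17.5 to 25.9 CPM in CORT hippocampus, and from 172 to 287 to between 300 and 450 CPM in liver. No groups overlapped, and the log2 fold change was 2.0 ± 0.10 in hippocampus and 0.88 ± 0.08 in liver. Fam107a and Ccn2 had the larger fold change in liver. Fam107a, an actin-binding protein of neurons and glia, rose by 1.03 ± 0.11 in hippocampus from a median of 217 to 442 CPM. In liver it was barely detected, at 0 to 0.262 CPM in vehicle and 0.588 to 2.21 CPM in CORT mice, so its liver fold change of 3.21 ± 0.41 rests on a level of a few counts. Ccn2, a matricellular growth factor also called CTGF, rose by 2.55 ± 0.28 in liver and 1.25 ± 0.28 in hippocampus, with overlapping hippocampal groups. With all 40 libraries its hippocampal effect was 0.57 and did not pass (adjusted p = 0.386).

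Shared genes that fell outnumbered those that rose. Among those with the largest effect in the tissue with the smaller one were the immune genes Cd74, Gbp4, Cd180 and Gbp3, the growth factor Bmp4, the aldehyde oxidase Aox3 and the chondromodulin Cnmd, whose hippocampal log2 fold change went from -1.46 to -0.74 without the choroid plexus libraries and did not pass (adjusted p = 0.509). That of Aox3 was -0.68 without them and did not pass (adjusted p = 0.160), against -0.84 with them (adjusted p = 0.0175). Cd74, the invariant chain of MHC class II (ENSMUSG00000024610), was at 54.3 to 102 CPM in vehicle livers (median 75.3) and 12.5 to 23.5 CPM in CORT livers (median 17.7). In hippocampus it was scarce, at 0.367 to 4.05 CPM (median 1.56) and 0.185 to 0.755 CPM (median 0.531). The liver groups were apart and the hippocampal ones overlapped. The log2 fold changes were -2.05 ± 0.15 and -1.90 ± 0.32, and the difference of -0.15 (95% interval -0.87 to 0.57) did not pass. Gbp4, an interferon-induced guanylate-binding GTPase, fell by 1.67 ± 0.22 and 1.66 ± 0.27 on the log2 scale, from 1.10 to 3.15 CPM to between 0.259 and 1.04 CPM in liver and from 0.732 to 2.12 CPM to between 0.138 and 0.555 CPM in hippocampus. Neither tissue had overlapping groups. Cd180, a Toll-like receptor homologue of B cells and macrophages, fell by 1.53 ± 0.20 in liver and 1.33 ± 0.17 in hippocampus, again without overlap in either. For Gbp4 and Cd180 the intervals of the difference, -0.71 to 0.68 and -0.74 to 0.33, still allow gaps of that size.

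The receptor gene Nr3c1 itself fell modestly in both tissues. It was at 81.5 to 92.6 CPM in vehicle livers (median 84.7) and 70.1 to 78.4 CPM in CORT livers (median 75.6), and at 79.9 to 108 CPM (median 98.1) and 63.4 to 95.2 CPM (median 73.4) in hippocampus. The liver groups were separate and the hippocampal groups overlapped in part. The log2 fold changes were -0.19 ± 0.06 (adjusted p = 0.00706) and -0.35 ± 0.06 (adjusted p = 0.000111), and the difference did not pass (adjusted p = 0.144). Igfbp2, which binds insulin-like growth factors, fell in liver to 0.146 of the vehicle level, from 278 to 890 CPM to between 54.2 and 94.1 CPM. In hippocampus it fell to 0.594, from 22.3 to 44.9 CPM to between 15.6 and 20.7 CPM, with a log2 fold change of -0.75 that was -0.58 without the choroid plexus libraries and did not pass (adjusted p = 0.118); with all 40 libraries it was -1.23 (adjusted p = 0.00185). Tst, a mitochondrial sulfurtransferase, went the other way in size: it fell by 0.74 ± 0.05 in hippocampus, from 26.0 to 29.7 CPM to between 15.2 and 18.7 CPM, and by 0.16 ± 0.04 in liver, where the groups overlapped (difference adjusted p = 6.17e-09).

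**Figure D2:**
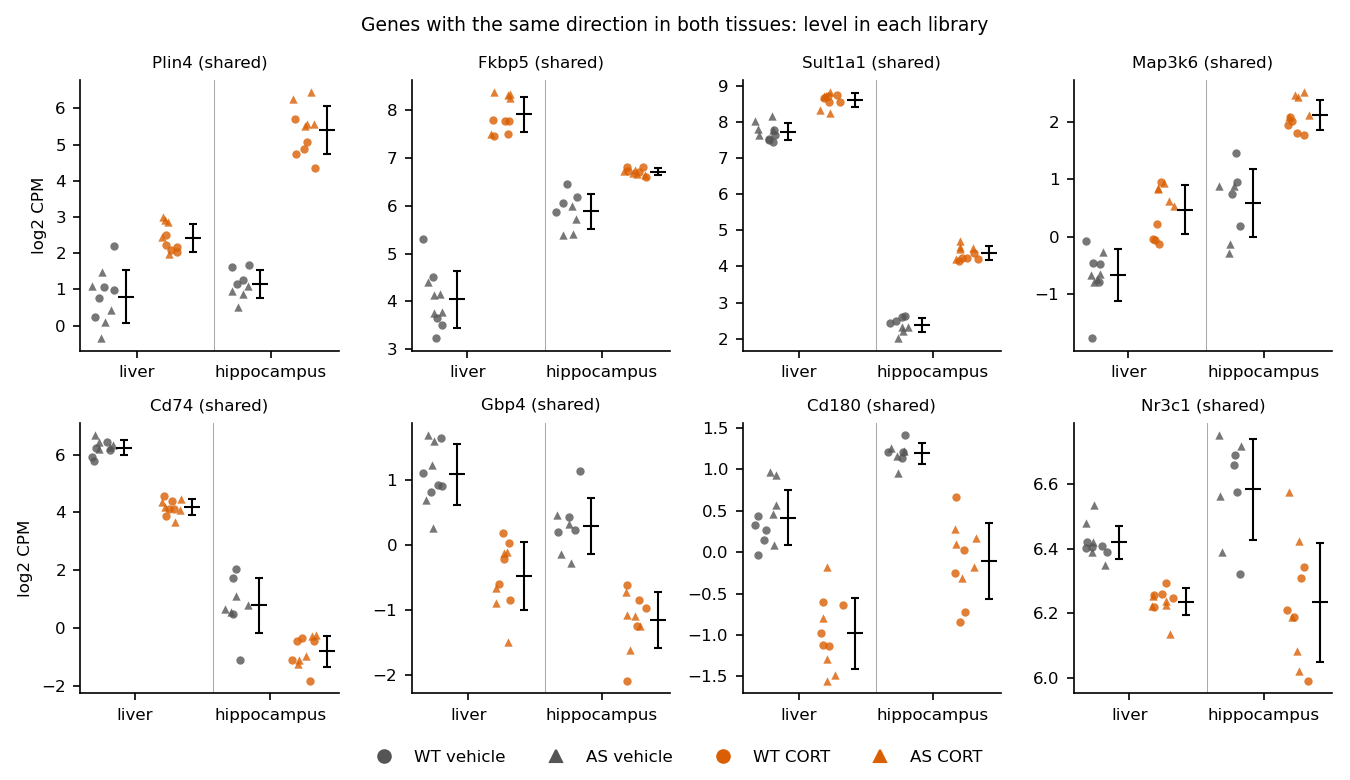
Levels of 8 shared genes in every library (points, log2 CPM with a prior count of 2) in vehicle and CORT mice, liver and hippocampus side by side, with bars for mean ± SD. Plin4, Fkbp5, Sult1a1 and Map3k6 rose, and Cd74, Gbp4, Cd180 and Nr3c1 fell, in both tissues; Plin4 rose most in hippocampus and Fkbp5 most in liver.

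Among the 97 opposite genes were Hsd11b1, Ttpa and Myom3. Hsd11b1 encodes 11β-hydroxysteroid dehydrogenase, which regenerates active CORT from its inert 11-keto form (ENSMUSG00000016194, chr1:193221634-193264075). It was at 634 to 721 CPM in vehicle livers (median 673) and 859 to 1259 CPM in CORT livers (median 928). In hippocampus it was at 28.7 to 36.8 CPM (median 32.3) in vehicle and 20.4 to 27.7 CPM (median 21.4) in CORT mice. Neither tissue had overlapping groups, and the directions were reversed. The log2 fold change was 0.56 ± 0.06 in liver and -0.52 ± 0.06 in hippocampus, with a difference of 1.09 ± 0.09 (adjusted p = 3.10e-12). Ttpa, the transfer protein for vitamin E (ENSMUSG00000073988), had a median of 230 CPM (179 to 301) in vehicle and 410 CPM (325 to 499) in CORT livers, and of 3.58 CPM (3.0 to 4.02) and 2.27 CPM (1.57 to 2.87) in hippocampus. Its groups did not overlap either, with log2 fold changes of 0.80 ± 0.08 and -0.68 ± 0.13.

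Myom3, a sarcomere protein of the M band (ENSMUSG00000037139), had the largest difference of the named opposite genes. It was at 0.0480 to 0.652 CPM in vehicle livers (median 0.203), near the level of 3 counts, and at 13.3 to 29.1 CPM in CORT livers (median 18.3). In hippocampus it was at 1.42 to 2.27 CPM (median 1.83) in vehicle and 0.462 to 1.42 CPM (median 0.883) in CORT mice. The liver groups were far apart, and the hippocampal ranges lay edge to edge without overlap. The log2 difference was 7.20 ± 0.37 (adjusted p = 7.06e-19), with 6.21 ± 0.29 in liver and -0.98 ± 0.22 in hippocampus.

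Other genes of this orientation also rose in liver and fell in hippocampus. Cd9, a tetraspanin, changed by 0.62 ± 0.14 and -0.61 ± 0.15, and Enpp6, a choline phosphodiesterase of young oligodendrocytes, by 0.76 ± 0.32 and -1.15 ± 0.24, both with overlapping groups in each tissue; with all 40 libraries the hippocampal value of Enpp6 was -1.85. Abhd5, the co-activator of adipose triglyceride lipase, changed by 0.37 ± 0.07 and -0.27 ± 0.07, Brca1, a DNA repair gene, by 0.76 ± 0.16 and -0.67 ± 0.19, and Wipi1, an autophagy protein, by 0.49 ± 0.06 and -0.21 ± 0.06. Arsg, a lysosomal sulfatase, changed by 0.64 ± 0.16 and -0.69 ± 0.18. It ends on chromosome 11 at base 109573330, and Wipi1, on the opposite strand, ends at the next base (109573331). Although the libraries were stranded, the strand setting of the counting is not given in the sources used here, so reads at this boundary may be shared. Without the choroid plexus libraries the hippocampal effects of these 4 genes were of similar size but did not pass: Abhd5 at -0.28 (adjusted p = 0.0767), Brca1 at -0.60 (0.145), Wipi1 at -0.22 (0.122) and Arsg at -0.61 (0.0736). Without the hepatocyte libraries Abhd5 was at -0.25 and did not pass either (0.0824). With all 40 libraries Abhd5, Brca1, Wipi1 and Arsg passed in hippocampus at -0.48, -0.98, -0.33 and -1.33. Summed oligodendrocyte markers ran from 2265 to 6774 CPM in vehicle and 2334 to 6146 CPM in CORT hippocampus, and none of the 4 tested passed there; their part in the Enpp6 result was not tested.

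The reverse orientation, down in liver and up in hippocampus, held 39 genes. Aldoc, the brain isoform of aldolase and an astrocyte marker (ENSMUSG00000017390), was at 644 to 786 CPM in vehicle hippocampus (median 672) and 968 to 1152 CPM in CORT hippocampus (median 1047). In liver it was at 13.4 to 22.5 CPM (median 19.5) and 3.85 to 13.6 CPM (median 9.95). The hippocampal groups were apart and the liver groups overlapped at one edge. The log2 fold change was 0.61 ± 0.13 in hippocampus and -1.09 ± 0.13 in liver (difference adjusted p = 9.02e-09). Of 6 astrocyte markers tested in hippocampus Aldoc alone rose, the water channel Aqp4 (-0.85 ± 0.11) and the connexin Gja1 (-0.29 ± 0.08) fell, and 3 did not pass. Ptgds, a prostaglandin D synthase abundant in the brain's linings, ran from 134 to 326 CPM in vehicle and from 218 to 613 CPM in CORT hippocampus, with overlap, and from 2.16 to 7.50 CPM and 0.627 to 3.26 CPM in liver. Its log2 fold change was 1.0 ± 0.20 in hippocampus and -0.88 ± 0.27 in liver. With all 40 libraries, the 2 that the study set aside included, the hippocampal value was 0.31 and did not pass (adjusted p = 0.569).

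Spp1, the secreted phosphoprotein osteopontin, rose by 1.12 ± 0.18 in hippocampus, from 0.953 to 2.12 CPM to between 2.17 and 3.93 CPM without overlap, and fell by 0.45 ± 0.12 in liver. With all 40 libraries its hippocampal effect was -0.0131 (adjusted p = 0.990). Sparc, a matrix protein, changed by 0.44 ± 0.11 in hippocampus and -0.71 ± 0.11 in liver, and its hippocampal value with all 40 libraries was 0.16 and did not pass (adjusted p = 0.603). Htra1, a secreted serine protease, changed by 0.54 ± 0.10 and -0.44 ± 0.16, and its liver effect did not pass with liver fitted alone (adjusted p = 0.120) or without any 1 of 6 libraries (highest adjusted p = 0.0710). Cables1, a cyclin-dependent kinase adaptor, changed by 0.62 ± 0.12 and -0.57 ± 0.16. Nlrp6, an inflammasome sensor, fell in liver from a median of 147 to 88.8 CPM (-0.69 ± 0.09); in hippocampus, where its median was 0.489 CPM in vehicle and 0.838 CPM in CORT mice, it changed by 0.89 ± 0.22, and by 0.83 without the choroid plexus libraries, which did not pass (adjusted p = 0.0519).

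**Figure D3:**
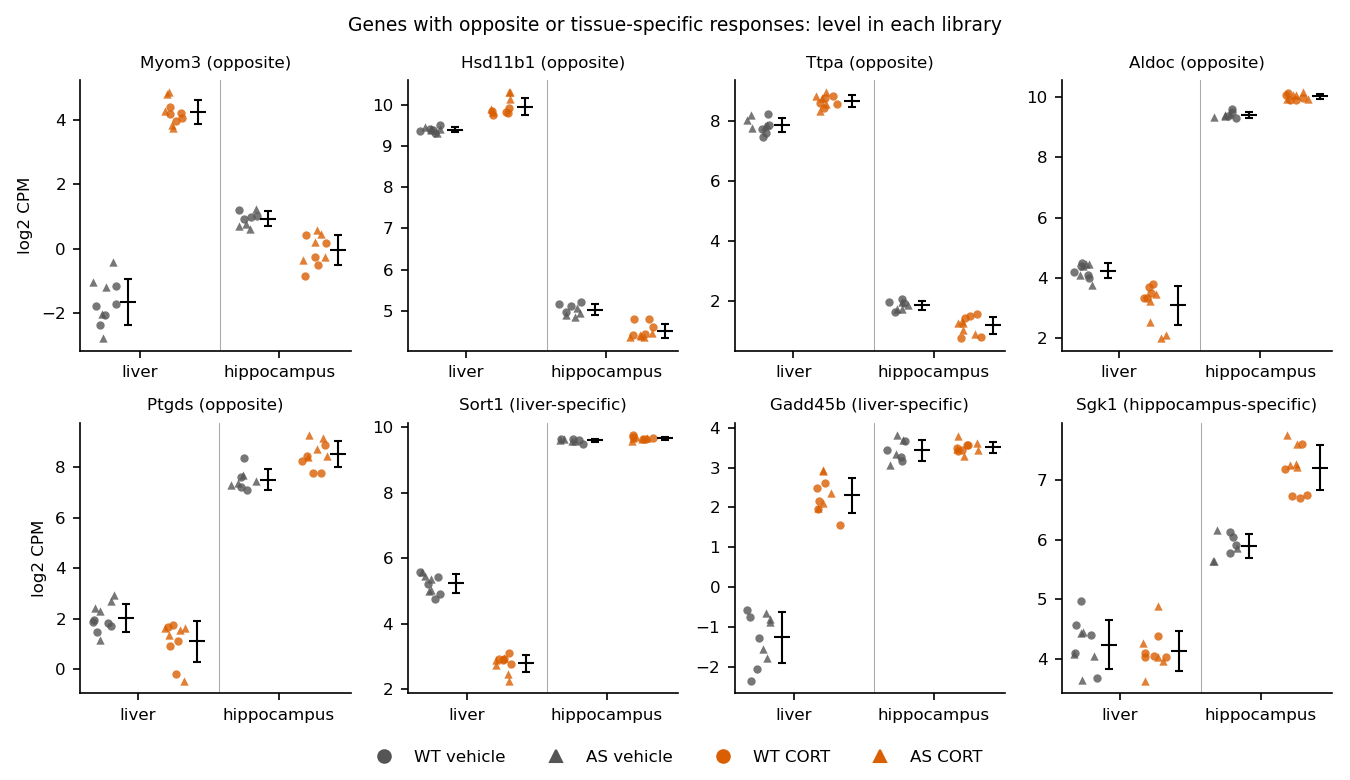
Levels of 8 genes with opposite or tissue-specific responses in every library (points, log2 CPM with a prior count of 2) in vehicle and CORT mice of each tissue, with bars for mean ± SD. Myom3, Hsd11b1 and Ttpa rose in liver and fell in hippocampus, Aldoc and Ptgds did the reverse, Gadd45b and Sort1 changed in liver alone and Sgk1 in hippocampus alone.

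Liver-specific genes were the largest responding class, and for many of them the hippocampus was measured tightly near 0. The 95% interval of the hippocampal log2 fold change lay within ±0.25 for 1372 of the 2363. Gadd45b, a stress-induced regulator of growth arrest, was at 0.0981 to 0.577 CPM (median 0.383) in vehicle and 2.87 to 7.59 CPM (median 4.71) in CORT livers, against 8.32 to 14 CPM (median 10.4) and 9.62 to 13.7 CPM (median 11.1) in hippocampus. The liver groups were far apart and the hippocampal ranges lay almost on each other. Its log2 fold change was 3.82 ± 0.24 in liver and 0.06 ± 0.13 in hippocampus (difference adjusted p = 6.87e-14). Cbr1, a carbonyl reductase of steroids and quinones, rose by 1.42 ± 0.06 in liver from a median of 43.6 to 118 CPM with medians of 42.9 and 44.0 CPM in hippocampus. Rnd2, a small GTPase, rose by 1.58 ± 0.08, Abcd4, a lysosomal cobalamin transporter, by 1.39 ± 0.07 and Serinc3, a membrane protein, by 0.97 ± 0.05, with hippocampal values of -0.20, 0.00 and 0.00; that of Rnd2 passed as a fall with each tissue fitted alone (adjusted p = 0.0160) and, at -0.46, with all 40 libraries (adjusted p = 0.0131).

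The same class held 1194 genes that fell in liver. Sort1, the sorting receptor sortilin (ENSMUSG00000068747), was at 27.0 to 47.7 CPM (median 38.9) in vehicle and 4.62 to 8.53 CPM (median 7.31) in CORT livers. In hippocampus it was at 722 to 808 CPM (median 787) and 776 to 871 CPM (median 814). The liver groups were separated and the hippocampal groups overlapped. Its log2 fold change was -2.47 ± 0.09 in liver and 0.07 ± 0.09 in hippocampus (difference adjusted p = 1.88e-17). Nrp1, a co-receptor for VEGF and semaphorins, changed by -1.84 ± 0.09 in liver and 0.09 ± 0.09 in hippocampus. Kcnt2, a sodium-activated potassium channel, changed by -2.15 ± 0.16 and -0.09 ± 0.07. Coro1a, an actin regulator of leukocytes that neurons also express, changed by -1.69 ± 0.10 and -0.07 ± 0.06, and Bdh1, an enzyme of ketone body metabolism, by -1.22 ± 0.06 and -0.07 ± 0.06.

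Among the hippocampus-specific genes that rose were Etnppl and Sgk1. Etnppl, a phospholyase of phosphoethanolamine found in astrocytes and hepatocytes (ENSMUSG00000019232), was at 2.13 to 6.17 CPM (median 3.22) in vehicle and 20.8 to 43.5 CPM (median 24.8) in CORT hippocampus. In liver it was at 162 to 343 CPM (median 186) and 177 to 263 CPM (median 208). The hippocampal groups were widely separated while the CORT livers lay inside the vehicle range. Its log2 fold change was 2.87 ± 0.17 in hippocampus, a 7.31-fold rise, and 0.05 ± 0.13 in liver (difference adjusted p = 2.86e-12); with all 40 libraries the hippocampal value was 1.61 (adjusted p = 0.00280). Sgk1, the serum- and glucocorticoid-regulated kinase (ENSMUSG00000019970), was at 49.8 to 71.8 CPM (median 59.2) and 104 to 216 CPM (median 150) in hippocampus, against 12.4 to 31.4 CPM (median 19.1) and 12.3 to 29.6 CPM (median 16.4) in liver. Its hippocampal groups did not overlap and its liver groups covered the same range. The log2 fold change was 1.33 ± 0.15 in hippocampus and -0.11 ± 0.15 in liver (difference adjusted p = 4.48e-06). Cyp4f15, a cytochrome P450 that hydroxylates fatty acids, rose by 1.13 ± 0.08, Phyhd1, a dioxygenase-domain protein, by 1.55 ± 0.18, and Idh2, the mitochondrial isocitrate dehydrogenase, by 0.51 ± 0.06. Their liver log2 fold changes were 0.07, -0.08 and -0.12; that of Idh2 lay just short of the threshold (adjusted p = 0.0523) and passed as a fall with each tissue fitted alone (adjusted p = 0.0385).

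Of the 147 hippocampus-specific genes 83 fell. Lag3, an inhibitory receptor of T cells that neurons also express, was at 4.10 to 5.81 CPM (median 5.22) in vehicle and 1.43 to 3.28 CPM (median 1.70) in CORT hippocampus, a log2 fold change of -1.47 ± 0.20. Its liver value of 0.47 ± 0.20 lay just short of the threshold (adjusted p = 0.0569), in the other direction. Serpind1, heparin cofactor II, changed by -1.43 ± 0.18 in hippocampus, from a median of 2.83 to 1.07 CPM, and by -0.06 ± 0.10 in liver, where it was at 545 to 773 CPM. With all 40 libraries its hippocampal value was -2.26. Serpind1 is a hepatocyte gene. Its hippocampal call passed also without the hepatocyte libraries, and the part of hepatocyte transcripts in its fall was not tested. Ednrb, an endothelin receptor of astrocytes, changed by -0.66 ± 0.07, S100a16, a calcium-binding protein, by -0.54 ± 0.06 and Col18a1, the precursor of endostatin, by -0.78 ± 0.11 (-1.26 with all 40 libraries). The liver interval lay within ±0.25 for 73 of the 147 hippocampus-specific genes.

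Gene lists for known pathways show how these classes divide. The median log2 fold change over all tested genes was 0.00 in each tissue, and each count below is read against the percentages called among all genes. Of 30 listed glucocorticoid receptor targets 26 were tested: 16 rose and 2 fell in liver (median 0.94), and 12 rose and none fell in hippocampus (median 0.46). They comprised 9 shared genes, 6 liver-specific ones, 2 hippocampus-specific ones and 1 opposite gene, the stress-induced sestrin Sesn1 (-0.28 ± 0.08 in liver and 0.29 ± 0.08 in hippocampus). Liver-specific examples were Ddit4, an inhibitor of mTORC1, with 2.07 ± 0.22 in liver and 0.54 ± 0.21 in hippocampus, and the transcription factors Cebpd (1.79 ± 0.15 and 0.38 ± 0.13) and Cebpb (1.27 ± 0.22 and 0.15 ± 0.26). Nfkbia, the inhibitor of NF-κB, rose in hippocampus (0.67 ± 0.12) and did not pass in liver (0.20 ± 0.12). Without the choroid plexus libraries 7 of the targets rose in hippocampus, and with each tissue fitted alone 18 did. Per1, both a target and a clock gene, spread over 0.590 to 54.7 CPM in vehicle livers and passed in neither tissue (1.13 ± 0.49 and 0.24 ± 0.50). Of 19 clock genes Bhlhe41 alone passed in liver and none passed in hippocampus. Bhlhe41, a transcriptional repressor, had a fitted change of -1.16 ± 0.47 in liver (adjusted p = 0.0429), where its median was 1.21 CPM in vehicle (0.344 to 12.6) and 1.54 CPM in CORT mice (0.534 to 3.51). The fitted fall ran against the medians, and it did not pass without any 1 of 10 libraries (highest adjusted p = 0.330) or with liver fitted alone (0.145).

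Of 17 tested genes for receptors and hormone handling, 10 rose and 2 fell in liver, while in hippocampus 1 rose and 2 fell. The liver group included the chaperones Hsp90ab1 (0.27 ± 0.05), Hspa8 (0.44 ± 0.13) and Bag1 (0.38 ± 0.05), none of which passed in hippocampus. For Bag1 the difference passed (0.36, adjusted p = 0.000161), and for Hspa8 it did not (0.41, adjusted p = 0.0955). The mineralocorticoid receptor Nr3c2 changed by -0.42 ± 0.12 in liver and by -0.27 ± 0.11 in hippocampus (adjusted p = 0.00382 and 0.180). Among 18 tested genes for heat shock and folding, 10 rose and 1 fell in liver and none passed in hippocampus.

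Metabolic genes changed in mixed directions, and their shares are read against the 41.4% of all genes that passed in liver and the 5.24% in hippocampus. Of 21 tested genes for lipid droplets, lipolysis and fatty acid oxidation, 11 rose and 3 fell in liver, and 3 rose and 1 fell in hippocampus. Lpin1, a phosphatidate phosphatase, rose by 2.29 ± 0.28 and Plin5, a perilipin of oxidative tissue, by 1.45 ± 0.10 in liver, with 0.10 ± 0.31 and 0.35 ± 0.22 in hippocampus. Pnpla2, the adipose triglyceride lipase, did the reverse, with 0.05 ± 0.10 in liver and 0.58 ± 0.11 in hippocampus (difference adjusted p = 0.00560). Of 21 tested genes for insulin signalling and glucose use 7 rose and 5 fell in liver, among them the hexokinases Hk2 (-1.09 ± 0.23) and Hk1 (-0.64 ± 0.08), and Igfbp2 alone passed in hippocampus. Of 23 tested genes for cholesterol synthesis and uptake, Mvk, Ebp and Sc5d fell in liver, and none passed in hippocampus, although the hippocampal median was -0.28. With each tissue fitted alone 15 of them fell in hippocampus. Among 16 tested genes for fatty acid synthesis 3 rose and 2 fell in liver and none passed in hippocampus.

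Most members of the immune lists fell in liver, and a smaller number passed in hippocampus. All 22 interferon response genes that passed in liver, of 23 tested, fell (median -1.0), and 4 fell in hippocampus (median -0.32), the guanylate-binding Gbp3, the antiviral Ifitm3, the transcription factor Irf7 and the apoptosis factor Xaf1, whose log2 fold change of -0.45 was -0.34 without the choroid plexus libraries (adjusted p = 0.347) and -0.45 without the hepatocyte libraries (0.0874), but -0.86 with all 40 libraries (0.00311). The effect was lower in liver for 15 and higher for none. Ifit3, for example, changed by -2.23 ± 0.13 in liver and -0.37 ± 0.13 in hippocampus (difference adjusted p = 4.87e-10). Its hippocampal fall passed with each tissue fitted alone (adjusted p = 0.0180). Among 13 tested genes of antigen presentation 11 fell in liver and 7 in hippocampus. H2-K1 (-0.06 ± 0.06 in liver and -0.35 ± 0.06 in hippocampus) and B2m (0.04 ± 0.06 and -0.33 ± 0.06), the chains of class I molecules, were hippocampus-specific; reads of the closely similar class I genes may be split between them with error. Of 15 tested genes of microglia and macrophages 12 fell and 1 rose in liver, and 5 fell in hippocampus. P2ry12, a purinergic receptor of microglia, changed by -0.90 ± 0.15 and -0.55 ± 0.07, and Mpeg1, a pore-forming protein of macrophages, by -1.18 ± 0.07 and -0.53 ± 0.08. The complement gene C1qb changed by -0.78 ± 0.08 in liver and 0.06 ± 0.08 in hippocampus, and the growth factor receptor Csf1r by -1.10 ± 0.08 and -0.12 ± 0.08. The hippocampal fall of Csf1r passed with each tissue fitted alone (adjusted p = 0.0303). The hippocampal falls of the interferon, antigen presentation and microglia lists numbered 8 each with hippocampus fitted alone. Without the choroid plexus libraries they numbered 2, 5 and 4.

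Blood moved with these lists in liver. All 5 tested blood markers, 4 globin genes and the heme synthesis enzyme Alas2, fell there, with a summed level of 243 to 573 CPM in vehicle and 124 to 327 CPM in CORT livers. In hippocampus they were at 41.1 to 118 CPM and 37.5 to 186 CPM and none passed. The part of blood cells in the immune results was not tested.

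Of 19 tested endothelial genes 14 fell in liver, 5 fell and 1 rose in hippocampus, and the difference passed for 3. Kdr, the VEGF receptor 2, changed by -0.66 ± 0.12 and -0.50 ± 0.14, Tie1, an orphan receptor kinase, by -0.83 ± 0.10 and -0.46 ± 0.10, and Cldn5, the tight junction claudin, by -0.95 ± 0.13 and -0.40 ± 0.11, each with overlapping groups in hippocampus. Without the choroid plexus libraries the hippocampal values of Kdr (-0.36, adjusted p = 0.314) and Cldn5 (-0.31, adjusted p = 0.316) did not pass. Stab2, a hyaluronan scavenger receptor, rose in hippocampus (1.21 ± 0.24) and did not pass in liver (-0.12 ± 0.09). Its hippocampal level was low, at 0.231 to 0.542 CPM in vehicle and 0.646 to 1.39 CPM in CORT mice. In vehicle livers it was at 40.8 to 72.0 CPM. Of 22 matrix genes 7 fell in liver, and 4 fell and 1 rose in hippocampus. The hippocampal falls numbered 10 endothelial and 9 matrix genes with hippocampus fitted alone. Without the choroid plexus libraries they numbered 3 and 1.

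The remaining lists held shares near or below the liver background as well as above it. Of 12 tested immediate early genes 4 fell in liver, Egr1 (-3.23 ± 0.51), Nr4a1 (-2.08 ± 0.53), Junb and Btg2, while Maff, a small Maf transcription factor, alone rose in hippocampus (2.16 ± 0.46, against 0.08 ± 0.31 in liver). Egr1 was at 0.913 to 27.6 CPM in vehicle and 0.208 to 2.11 CPM in CORT livers. Nr4a1 was at 0.452 to 2.99 CPM and 0.0510 to 0.879 CPM, and the liver groups of both genes overlapped. Of 14 tested cell cycle genes 2 rose and 8 fell in liver and none passed in hippocampus: Ccnd1, cyclin D1, changed by -2.28 ± 0.17 in liver and 0.09 ± 0.15 in hippocampus, and Rrm2, a subunit of ribonucleotide reductase, by 2.21 ± 0.16 and -0.39 ± 0.24. Of 12 genes of the growth hormone and IGF axis 5 fell in liver, the receptor Ghr by 0.62 ± 0.07 on the log2 scale, and in hippocampus Ghr fell and Igf1r rose. The hippocampal value of Ghr was -0.29, and it was -0.30 without the choroid plexus libraries (adjusted p = 0.121) and -0.31 without the hepatocyte libraries (0.0677). Of 20 tested autophagy genes 9 rose and 4 fell in liver and 1 passed in hippocampus. Of 22 tested genes of ER stress and amino acid response 5 rose and 3 fell in liver and none passed in hippocampus. Of 10 for metal and sulfate conjugation 7 rose and 2 fell in liver and 3 rose in hippocampus.

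**Figure D4:**
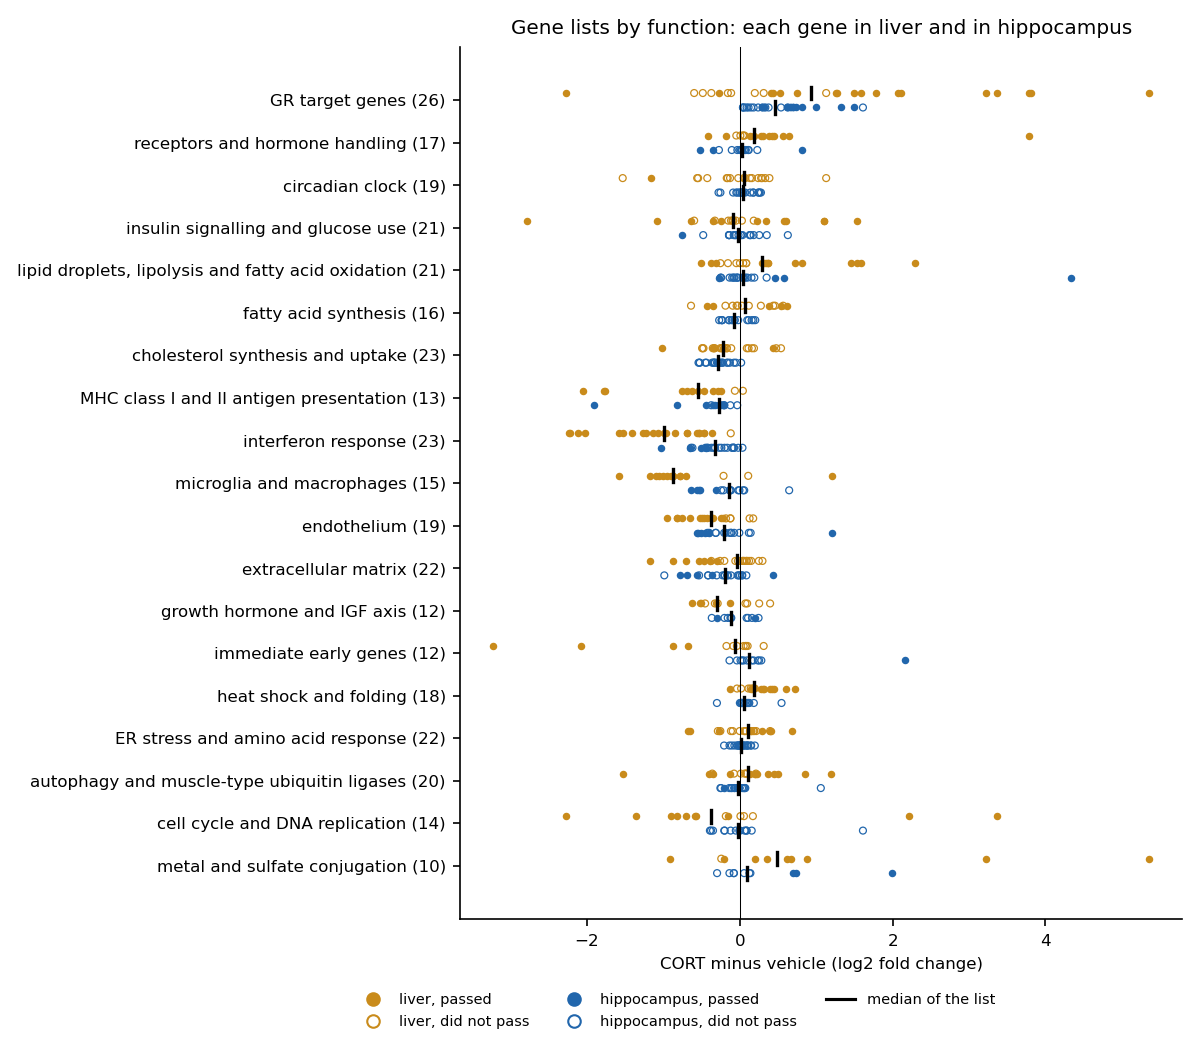
CORT effect (x axis, log2 fold change) of each tested gene of each list, in liver (orange) and in hippocampus (blue). Filled points passed the test, open points did not, black bars are list medians, and numbers in brackets are genes tested; the interferon response median is -1.0 in liver and -0.32 in hippocampus, and that of glucocorticoid receptor (GR) targets 0.94 and 0.46.

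Genotype entered as a covariate, and its bearing on the tissue difference was tested as a 3-way interaction. None of the 11017 genes passed (0.0%) with edgeR's test, against 714 at an unadjusted p under 0.05; a block on the library number gave 0 and 711. In WT and AS mice estimated apart, all 238 shared genes had the same sign of effect in both genotypes in liver and in hippocampus. This held for 96 of 97 opposite genes in liver and 97 of 97 in hippocampus, for 2358 of 2363 liver-specific genes in liver and for 147 of 147 hippocampus-specific genes in hippocampus; as the classes were called on both genotypes together, these signs are not independent of the call. Fkbp5, for example, rose by 3.42 in WT and 4.15 in AS livers on the log2 scale, and by 0.58 and 1.05 in hippocampus. Hsd11b1 changed by 0.43 and 0.70 in liver and by -0.50 and -0.55 in hippocampus.

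A separate cohort gave a hippocampal readout that the sorting did not use. In 12 WT mice, 6 injected subcutaneously with 3 mg/kg CORT and 6 with vehicle and killed after 3 h, 132 of 14383 tested genes passed (0.918%), and 1285 were under an unadjusted p of 0.05. Of the classes, 24 of 230 shared genes tested there passed (10.4%), 23 of them in the hippocampal direction of the continuous cohort. So did 14 of 143 hippocampus-specific genes (9.79%), all 14 among the raised ones, and 5 of 96 opposite genes (Cmtm3, Ucp2, Sgk3, Htra1 and Rin2), each in the hippocampal and not the liver direction. Of 2338 liver-specific genes 17 passed (0.727%), against 91 of the 10795 genes tested in both cohorts (0.843%). The exception among the shared genes was Rhbdf1, an inactive rhomboid, which rose at 3 h (0.39 ± 0.08) and fell after 5 days (-0.30).

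Of the 12 listed receptor targets that rose in hippocampus after 5 days, 6 passed at 3 h, all upward (Fkbp5, Tsc22d3, Mt2, Map3k6, Arrdc2 and Nfkbia). Fkbp5 rose by 0.81 ± 0.07 at 3 h and by 0.81 ± 0.18 after 5 days, and Map3k6 by 1.61 ± 0.15 and 1.5 ± 0.18. Nr3c1 fell by 0.49 ± 0.07 and 0.35 ± 0.06 on the log2 scale. Plin4 rose by 1.87 ± 0.31 at 3 h, from a median of 8.21 to 28.2 CPM, against 4.34 ± 0.26 after 5 days, and Sult1a1 by 1.07 ± 0.12 against 2.0 ± 0.10. Among hippocampus-specific genes Xdh, the purine-oxidizing xanthine dehydrogenase, rose by 0.89 ± 0.09 and 1.09, and Ada, adenosine deaminase, by 1.34 ± 0.25 and 1.27. Etnppl and Sgk1 did not pass at 3 h (0.64, adjusted p = 0.142, and 0.62, adjusted p = 0.171). The cohorts differ in route, dose and time, so the values stand side by side and were not compared by a test.

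**Figure D5:**
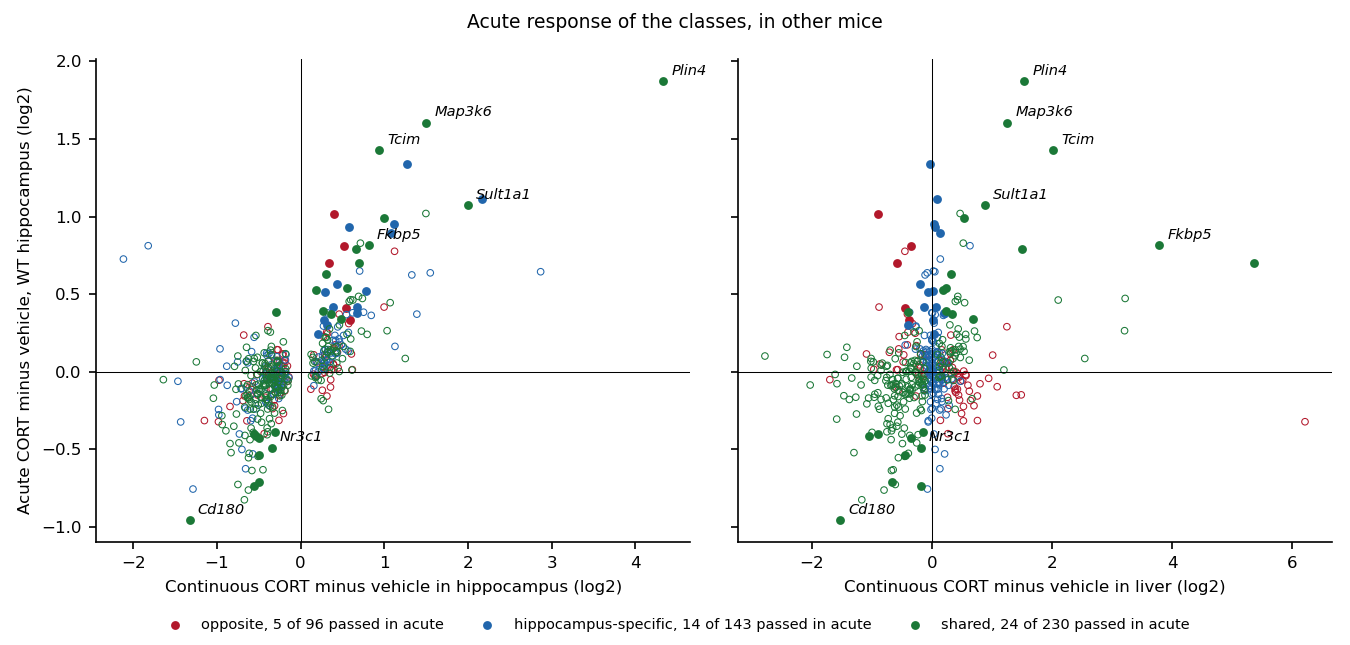
Log2 fold change in WT hippocampus 3 h after an injection (y axes) against that after 5 days of CORT in hippocampus (left x axis) and in liver (right x axis) for shared, opposite and hippocampus-specific genes. Filled points passed in the acute cohort; in the left panel 23 of the 24 shared, all 5 opposite and all 14 hippocampus-specific ones lie in the quadrants of equal sign.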

How the data were processed

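RNA was sequenced from hippocampus and liver of the continuous cohort and from hippocampus of an acute cohort. The authors aligned 100 bp paired reads with STAR to mm10 and counted them per gene with HTSeq; the deposited values are raw counts, with annotation release and strand setting not given in the sources used here. Rows that name no gene stayed out of library sizes and tests; genes held 76.7 to 84.6% of reads in liver and 87.4 to 88.3% in hippocampus. There were 0 columns of no sample. Symbols and coordinates are from GENCODE M21 (GRCm38), which names 55480 of the 55573 IDs.

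Genes with a normalized count above 20 in at least 3 replicates of a group were kept per tissue (14949 in hippocampus, 12273 in liver), and the 11017 kept in both were tested. One edgeR 4.0.16 quasi-likelihood model (R 4.3.3) over 38 libraries, with TMM factors within tissue, held tissue, treatment and genotype; p-values were Benjamini-Hochberg adjusted, and SEs are Wald-type. Each library of a tissue is 1 mouse. The sources used here do not state that equal library numbers in both tissues mark 1 mouse; they match in genotype and treatment for all 20 numbers, and residuals of equally numbered libraries correlated by -0.081 to 0.076. No libraries were duplicates. The model was tested on simulated data, recovering 66% of log2 differences of 0.5 and 95% of those of 1 among 11017 genes, with 4.17% false calls. For the acute WT mice (14383 genes) it recovered 76% and 96%, with 5.49% false calls. The simulated liver and hippocampal libraries shared the same spread for each gene and had no genotype effect. The simulation therefore does not cover unequal spread between the tissues. Acute AS mice were not used here: all of their CORT libraries and only some of their vehicle libraries held more low-quality reads than every acute WT library.

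Named genes were, leaving out Gm and Rik names, the 8 rising and 8 falling shared genes with the largest smaller absolute log2 fold change, up to 6 opposite genes per orientation by the same measure, the 5 rising and 5 falling genes of each tissue-specific class and 4 shared genes with the smallest p for the difference, 6 receptor genes, and 2 to 4 members of each list. Other list members given as examples were chosen after their values were seen, and so were the settings without libraries holding hepatocyte (above 10 CPM) or choroid plexus (above 100 CPM) markers. The comparison, the members and the gene lists were chosen with earlier results of these data known. Alternatives covered normalization, filter, threshold, DESeq2 1.42.0, limma-voom 3.58.1, a surrogate variable per tissue (sva 3.50.0), GC content and length, genotype, the library number as a block, all 40 libraries, and each library left out. Intervals are 95%. Some genes that the naming rule selects are not reported here.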

Additional observations from a re-analysis of the deposited data

Results flagged for a closer look

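The CORT effect differed between liver and hippocampus for 2794 genes by the test of the difference itself. Among the named opposite genes, liver effect minus hippocampal effect was positive on the log2 scale for Myom3 (7.20), Enpp6 (1.91), Ttpa (1.48), Brca1 (1.43), Arsg (1.33), Cd9 (1.24), Hsd11b1 (1.09), Wipi1 (0.70) and Abhd5 (0.637). It was negative for Ptgds (-1.88), Aldoc (-1.70), Nlrp6 (-1.58), Spp1 (-1.57), Cables1 (-1.19), Sparc (-1.15) and Htra1 (-0.983). Of these, Myom3, Hsd11b1 and Ttpa had groups that did not overlap in either tissue.

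In 10 of 220 groups tested (4.55%) 1 library stood apart from its group by Dixon's ratio, the gap to the nearest library over the range; chance gives about 1 in 20. In liver the ratio was 0.576 for Map3k6 in vehicle mice (a WT library lowest), 0.579 for Spp1 in CORT mice (a WT library lowest) and 0.526 for Nr3c1 in CORT mice (an AS library lowest). In vehicle hippocampus it was 0.631 for Cnmd and 0.528 for Lag3, where the same WT library, which also held choroid plexus transcripts, was highest and lowest. It was 0.668 there for Phyhd1 (an AS library lowest, one with hepatocyte transcripts) and 0.55 for Ednrb (a WT library highest). In CORT hippocampus it was 0.514 for Gbp3 and 0.527 for Cables1 (AS libraries lowest) and 0.61 for Lag3 (a WT library highest).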

How the results depend on the processing

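At an adjusted p of 0.01 the counts were 1771 genes with a differing effect, 301 in hippocampus, 109 shared, 38 opposite, 1541 liver-specific and 80 hippocampus-specific. In WT mice alone they were 1033, 142, 44, 13, 890 and 51, with 2387 in liver, and in AS mice alone 1670, 185, 76, 32, 1478 and 54; both used fewer mice. Hippocampal genes numbered 1106 with limma-voom weights, 1090 with each tissue fitted alone, 1152 with all 40 libraries and 955 with a surrogate variable per tissue. Shared genes were 371 in separate fits and 384 with the surrogate variable. Opposite genes were 149 with limma-voom, 152 in separate fits and 189 with the surrogate variable. Hippocampus-specific genes were 208 with limma-voom, 224 in separate fits, 308 with all 40 libraries and 231 with the surrogate variable. The cause was not tested. Of the 238 shared genes 132 remained without the choroid plexus libraries (313 hippocampal, 136 shared, 57 opposite and 87 hippocampus-specific genes in all) and 201 without the hepatocyte libraries. With the DESeq2 Wald test 37 shared genes passed in the acute cohort. Higher and lower effects in liver split 1391 to 1403; with upper-quartile factors they split 1206 to 1576 and with TMM over all libraries 1623 to 1246. Spp1 in hippocampus turned to -0.0131 with all 40 libraries (adjusted p = 0.990), and the hippocampal calls of Ccn2, Ptgds and Sparc were lost there.

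With the library number taken as the mouse, in a replicate block over the 36 libraries whose number occurs in both tissues, 2359 genes had a differing effect and 0 depended on genotype. The same 36 libraries without the block gave 2686 genes. A hippocampal library correlated best with the liver of its own number, among those of its group, in 4 of 18 cases. Of the 79 named genes with a called difference, 5 lost it under the block and 3 without it, among the former Ccn2 (adjusted p = 0.0588), Sc5d, Jak2 and Hspd1.

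Without 1 library the counts ran from 2618 to 3006 for the difference, 4283 to 4792 in liver, 445 to 607 in hippocampus, 188 to 250 shared, 72 to 104 opposite, 2198 to 2563 liver-specific and 120 to 151 hippocampus-specific genes, 16 to 28 shared genes in the acute cohort, and 0 to 6 genes dependent on genotype (6 without AS CORT liver 10). Of 62 named hippocampal calls 15 were lost without at least 1 library, among them Wipi1 (without any of 26), Zbtb16 and Ghr (25 each), Xaf1 (22) and Mt2 (20). Of 84 liver calls 6 were lost, among them Enpp6 (22). Depth limits the genes near 1 CPM, where 3 counts are 0.138 to 0.161 CPM.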

Other observations

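Of the 17 liver-specific genes that passed in the acute cohort, 9 moved there in their liver direction and 16 in the sign of their hippocampal estimate after 5 days, although none passed in hippocampus at 5 days. The genes below were chosen after their values were seen. Fmo2, a flavin-containing monooxygenase, rose by 3.0 in liver on the log2 scale, was at 0.22 in hippocampus after 5 days (adjusted p = 0.960) and rose by 1.41 ± 0.26 at 3 h. Mfsd2a, the lysolipid transporter of brain endothelium and liver, rose by 2.72 in liver, was at 0.91 in hippocampus (adjusted p = 0.10) and rose by 0.76 ± 0.06 at 3 h. Angptl4, an inhibitor of lipoprotein lipase, rose by 1.59 in liver and by 0.76 ± 0.16 at 3 h, with 0.04 in hippocampus after 5 days.

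Others fell in liver and rose in the acute hippocampus. Nrros, a partner of latent TGF-β in microglia and macrophages, was at -0.59 in liver, 0.28 in hippocampus after 5 days (adjusted p = 0.191) and 1.0 ± 0.08 at 3 h. Klhdc7a, a Kelch-domain protein, was at -1.46, 0.27 and 0.70 ± 0.07, and Sh2b2, an adaptor of insulin receptor signalling, at -0.68, 0.16 and 0.95 ± 0.15. Tgm2, a transglutaminase, was at -0.54, 0.16 and 0.42 ± 0.08. These values compare tissues across cohorts and were not tested against each other.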
